A study of Mus musculus with 6 samples.

Results

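Cytochrome c oxidase (complex IV) is built from catalytic subunits encoded by mitochondrial DNA and smaller subunits encoded in the nucleus, and 10 nuclear genes for subunits 4, 5a, 5b, 6a, 7a and 8 were followed here. They were chosen by symbol, through the Ensembl mouse gene IDs of the files, out of 41025 genes in each table, and all 10 were above 0 in every library. RNA came from the tibialis anterior, a hindlimb muscle of mostly fast fibres, of C57BL/6 mice aged 8 weeks: 3 libraries labelled Mettl21e KO, which lack a muscle-enriched methyltransferase gene by their label, and 3 labelled wild type (WT). The labels do not describe the deleted region or how the KO was made, and neither label states that each library came from a mouse of its own. P-values therefore measure the spread between these libraries. Levels are FPKM, fragments scaled by gene length and library size. Library totals, inferred from the FPKM values, were 8476591 to 10435095 fragments for KO libraries and 8842349 to 10856669 for WT libraries.

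Complex IV passes electrons from cytochrome c to oxygen at the end of the respiratory chain, and its nuclear subunits stabilise and tune the catalytic core. Subunits 6a, 7a and 8 exist in rodents in a heart and muscle form (Cox6a2, Cox7a1, Cox8b) and a ubiquitous form, also called the liver form (Cox6a1, Cox7a2, Cox8a). Subunit 4 has the widely expressed Cox4i1 and Cox4i2, a form known from lung and from cells at low oxygen. Cox5a and Cox5b encode matrix-side subunits 5a and 5b, each without an isoform of this kind.

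The targeted gene did not tell the labels apart. Mettl21e was at 1.64, 1.45 and 1.88 FPKM in KO libraries 1, 2 and 3, against 2.46, 0.309 and 1.23 FPKM in WT libraries 1, 2 and 3. The KO range lies inside the WT range (two-sided exact permutation test, p = 0.7, where the smallest possible p is 0.1), and the difference of means changed sign, to -0.19 FPKM, without WT library 2. KO and WT below are therefore the labels of libraries. The 5 fibre markers Ckm, Acta1, Ttn, Myh4 and Myh1 summed to 24342 to 29632 FPKM in KO libraries and 27338 to 29765 FPKM in WT libraries, with 4 of 5 means higher in KO libraries and the groups apart for 1, Myh1 (1977 to 2753 FPKM in KO libraries, 1763 to 1881 FPKM in WT libraries). Slow and oxidative fibre markers (Myh2, Myh7, Myl2, Tnnt1, Tnnc1, Tnni1 and Atp2a2) summed to 1029.6, 1048 and 359 FPKM in KO libraries 1, 2 and 3, against 1113, 1826 and 1371 FPKM in WT libraries 1, 2 and 3. All 7 had a lower mean in KO libraries, and for 3 of them, Myh7, Myl2 and Atp2a2, the groups did not overlap. Of all 11383 tested genes, 5.64% were apart with KO libraries lower and 3.84% with KO libraries higher. Myh7 was low, at 0.549 to 0.714 FPKM in KO libraries and 0.876 FPKM in WT library 3. In WT library 3, Tnnt1 (6.24 FPKM) and Tnni1 (2.35 FPKM) lay within the KO range and Tnnc1 (3.28 FPKM) below it. For Myh2 it was WT library 1 (926 FPKM) that lay within the KO range. Myh2 alone held 297 of the 359 FPKM in KO library 3 and most of the sum elsewhere.

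A ratio of isoforms rests on telling their fragments apart, so the coding sequences of the pairs with the highest ratios are shown. Cox6a2 lies on the minus strand at chr7:128205435-128206387 of mm10 and Cox6a1 on the minus strand at chr5:115345642-115348981. Their coding sequences, of 291 and 336 bases without the stop codon, are identical at 64.6% of 291 aligned bases. Cox6a2 is shown whole and Cox6a1 from base 46 to base 336. The capitals mark the longest run that the pair shares, 12 bases, and the sequences are from GENCODE M21 transcripts, 5′ to 3′.
Cox6a2: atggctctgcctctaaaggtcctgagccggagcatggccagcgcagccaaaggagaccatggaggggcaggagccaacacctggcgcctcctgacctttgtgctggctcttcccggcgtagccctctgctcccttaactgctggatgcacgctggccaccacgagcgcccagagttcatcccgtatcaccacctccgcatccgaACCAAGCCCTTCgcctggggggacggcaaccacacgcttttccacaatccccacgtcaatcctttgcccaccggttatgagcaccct
Cox6a1: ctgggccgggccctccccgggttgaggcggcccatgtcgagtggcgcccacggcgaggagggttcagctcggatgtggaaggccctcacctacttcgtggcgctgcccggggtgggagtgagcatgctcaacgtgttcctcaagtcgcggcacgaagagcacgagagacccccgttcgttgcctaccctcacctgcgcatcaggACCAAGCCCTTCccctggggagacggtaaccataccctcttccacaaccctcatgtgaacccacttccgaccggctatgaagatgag
Cox8b lies on the minus strand at chr7:140898945-140900446 and Cox8a on the minus strand at chr19:7215153-7217616. Their coding sequences of 210 and 207 bases are identical at 55.7% of 201 aligned bases, and the longest shared run, again in capitals, has 10 bases.
Cox8b: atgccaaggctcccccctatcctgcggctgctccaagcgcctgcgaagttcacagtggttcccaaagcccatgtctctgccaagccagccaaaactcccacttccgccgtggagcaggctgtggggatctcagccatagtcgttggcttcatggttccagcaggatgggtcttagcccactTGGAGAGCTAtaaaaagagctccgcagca
Cox8a: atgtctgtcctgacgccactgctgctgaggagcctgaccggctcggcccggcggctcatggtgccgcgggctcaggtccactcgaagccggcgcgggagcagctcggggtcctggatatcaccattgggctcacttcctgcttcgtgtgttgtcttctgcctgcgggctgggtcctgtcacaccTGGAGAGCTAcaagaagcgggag
Cox7a1 and Cox7a2 were identical at 62.5% of 240 aligned coding bases, and Cox4i2 and Cox4i1 at 69.0% of 487. In none of the 4 pairs did the annotated transcripts share a word of 50 bases (0 shared words each).

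Some members do share words with other genes. Of the 50-base words of Cox5b, 11.9% also occur in Gm11273, listed at 0 FPKM in all 6 libraries. For Cox6a1 the share was 9.2%, with a processed pseudogene not analysed here. Cox5a shared 9.1%, mostly with the overlapping non-coding gene Gm26631 (0.247 to 0.446 FPKM), Cox4i1 6.6%, mostly with Emc8 (8.75 to 10.1 FPKM), and Cox6a2 3.3%, with Itgad (0 to 0.108 FPKM). Emc8, Gm26631 and Itgad overlap their partners on the other strand; whether counting used strand is unknown, and reads of such partners may not be told apart. Cox4i1 also overlaps Gm20388 on its own strand, listed at 0 FPKM in all libraries. Cox4i2, Cox7a1, Cox7a2, Cox8a and Cox8b shared 0% of their words.

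Among the isoform pairs, the muscle genes stood far above the ubiquitous ones in all 6 libraries, and the ratio differed between subunits. Cox6a2 and Cox8b exceeded their partners by 18.1 to 31.8 times, and Cox7a1 exceeded Cox7a2 by 4.08 to 4.70 times. Together the muscle genes made up 91.1%, 92.0% and 91.9% of the summed FPKM of the 6 isoform genes in KO libraries 1, 2 and 3, against 91.7%, 91.3% and 91.3% in WT libraries 1, 2 and 3. This share differed by less between the groups than among libraries of 1 label.

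**Figure D1:**
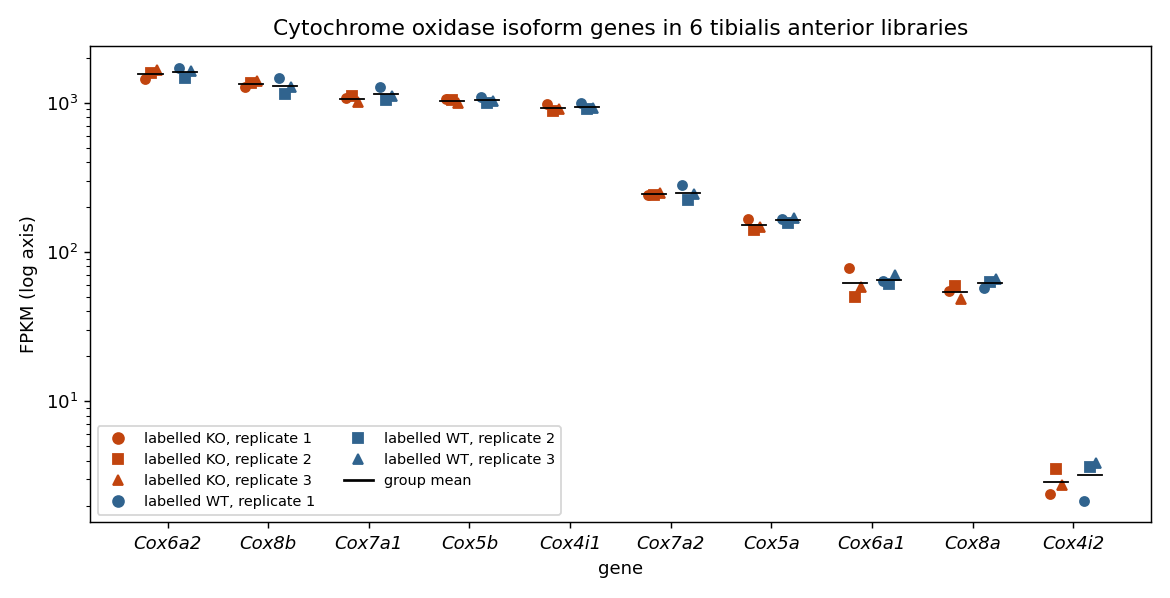
FPKM (log axis) of the 10 cytochrome oxidase genes in each library, KO-labelled left and WT-labelled right of each gene, with the group mean of 3 libraries as a bar. The muscle genes Cox6a2, Cox8b and Cox7a1 lie with Cox5b and Cox4i1 between 876 and 1714 FPKM, Cox6a1 and Cox8a between 48.3 and 77.6 FPKM, and Cox4i2 below 3.88 FPKM.

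Subunit 6a sits at the interface of the complex IV dimer, and its muscle gene Cox6a2 was the highest of the 10, at rank 41 of 11383 tested genes by mean FPKM. Cox6a2 was at 1441, 1578 and 1647 FPKM in KO libraries 1, 2 and 3, against 1714, 1469.7 and 1621 FPKM in WT libraries 1, 2 and 3. The groups overlapped, and the limma difference was -0.04 (SE 0.09) on the log2(FPKM + 1) scale, KO minus WT, with an adjusted p of 0.988. Cox6a1, at rank 1165, was at 77.6, 49.7 and 58.4 FPKM in KO libraries 1, 2 and 3, against 64.0, 60.6 and 70.4 FPKM in WT libraries 1, 2 and 3. KO library 1 held the highest and KO library 2 the lowest value of the 6, so the KO range enclosed the WT range (log2 difference -0.09, SE 0.15, limma adjusted p = 0.988). Those values rest on 449 fragments (95% exact Poisson interval 408 to 493) in KO library 1 and 309 (276 to 345) in KO library 2, intervals that do not meet. Poisson intervals cover counting error only.

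The Cox6a2 to Cox6a1 ratio was 18.6, 31.8 and 28.2 in KO libraries 1, 2 and 3, against 26.8, 24.3 and 23.0 in WT libraries 1, 2 and 3. KO libraries varied more (26.2 ± 6.83, SD, n = 3) than WT libraries (24.7 ± 1.92, SD, n = 3), and the low KO library 1 is the one in which Cox6a1 was high and Cox6a2 lowest. Mean log2 ratios differed by 0.05, KO minus WT (two-sided exact permutation test, p = 0.9). That difference was 0.28 without KO library 1, -0.11 without KO library 2 and -0.02 without KO library 3, so the sign is set by single libraries. The sum of both genes was 1617 ± 93.9 FPKM in KO libraries and 1667 ± 126 FPKM in WT libraries (SD, n = 3 each).

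Subunit 7a has a relative in respiratory supercomplexes, Cox7a2l. Cox7a1 lies on the plus strand at chr7:30184144-30186078 and Cox7a2 on the minus strand at chr9:79755361-79759878. Cox7a1 was at 1074, 1099 and 1012 FPKM in KO libraries 1, 2 and 3, against 1279, 1046 and 1105 FPKM in WT libraries 1, 2 and 3. WT library 1 was highest and the groups overlapped (log2 difference -0.10, SE 0.09, limma adjusted p = 0.988). Cox7a2 was at 239.7, 242 and 248 FPKM in KO libraries 1, 2 and 3, against 280.2, 223 and 245 FPKM in WT libraries 1, 2 and 3. Here the KO libraries lay inside the WT range, with a log2 difference of -0.03 (SE 0.09, limma adjusted p = 0.988).

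Of the ubiquitous forms Cox7a2 was thus by far the most abundant, and its ratio was the steadiest. Cox7a1 stood to Cox7a2 at 4.48, 4.53 and 4.08 in KO libraries 1, 2 and 3, against 4.56, 4.70 and 4.51 in WT libraries 1, 2 and 3. KO libraries 1 and 3 lay below all WT libraries and KO library 2 lay between them. The mean was 4.37 ± 0.246 in KO libraries and 4.59 ± 0.0955 in WT libraries (SD, n = 3 each), a log2 difference of -0.07 (two-sided exact permutation test, p = 0.2). Without KO library 3 it was -0.03. The pair summed to 1305 ± 41.9 FPKM in KO libraries and 1392 ± 149.99 FPKM in WT libraries.

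Subunit 8 is among the smallest of the enzyme, and its muscle gene Cox8b has no working human counterpart. Cox8b was at 1272, 1360.4 and 1384 FPKM in KO libraries 1, 2 and 3, against 1456, 1136 and 1262 FPKM in WT libraries 1, 2 and 3. It was the 1 member with a higher mean in KO libraries, yet all 3 KO libraries lay within the WT range (log2 difference 0.07, SE 0.10, limma adjusted p = 0.988). Cox8a was at 54.6, 59.1 and 48.3 FPKM in KO libraries 1, 2 and 3, against 57.7, 62.7 and 66.4 FPKM in WT libraries 1, 2 and 3. Its groups overlapped by KO library 2 and WT library 1 alone. The log2 difference of -0.20 (SE 0.10) was the furthest from 0 among the 10 members and had an unadjusted p of 0.0710 and a limma adjusted p of 0.988. Between 223 and 336 fragments stood behind the KO values and between 320 and 371 behind the WT values.

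The Cox8b to Cox8a ratio was 23.3, 23.0 and 28.7 in KO libraries 1, 2 and 3, against 25.2, 18.1 and 19.0 in WT libraries 1, 2 and 3. WT library 1 lay within the KO range and the other 2 WT libraries below it. The mean was 24.99 ± 3.19 in KO libraries and 20.8 ± 3.88 in WT libraries (SD, n = 3 each), a log2 difference of 0.27 (two-sided exact permutation test, p = 0.3). Among the 4 ratios compared, each with 0.1 as the smallest possible p, none had separated groups, and no multiple-test adjustment could have brought one under 0.05. The log2 difference was 0.42 without WT library 1, 0.17 without KO library 3 and 0.18 without WT library 2. KO library 3, with the highest ratio, also had the lowest sum of slow and oxidative fibre markers, through Myh2 alone. For each of the other 6 markers KO library 1 was lower than KO library 3, and a part of fibre type in the ratio was not tested. The pair summed to 1393 ± 57.9 FPKM in KO libraries and 1347 ± 158 FPKM in WT libraries.

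**Figure D2:**
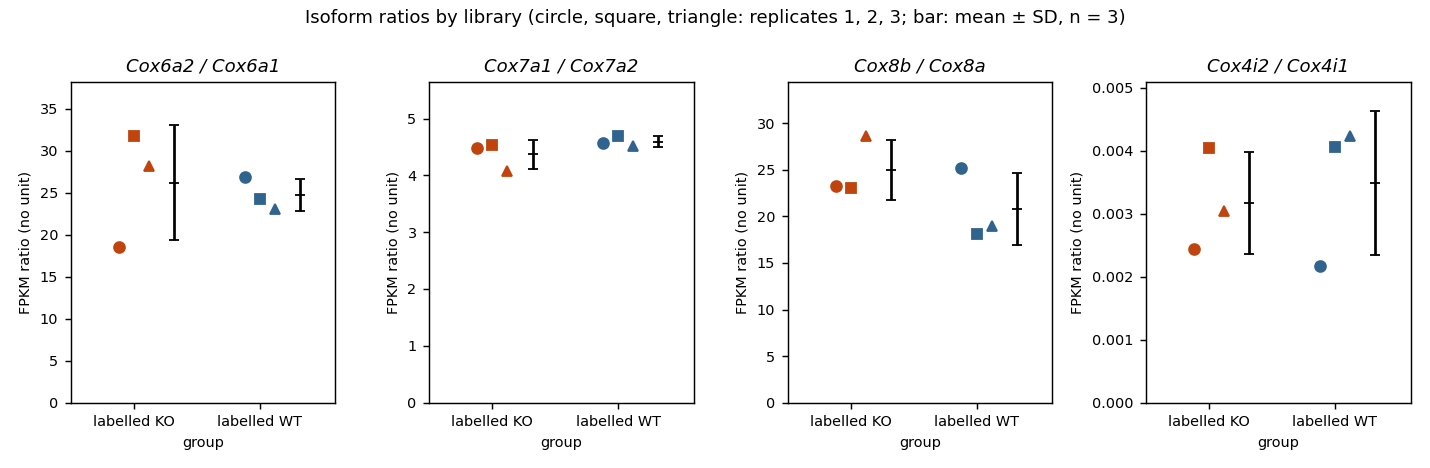
FPKM ratio (no unit) of Cox6a2 to Cox6a1, Cox7a1 to Cox7a2, Cox8b to Cox8a and Cox4i2 to Cox4i1 in each library, KO-labelled left and WT-labelled right, each axis from 0, with mean ± SD of 3 libraries as a bar. The groups overlap in all 4 panels, and the Cox7a1 to Cox7a2 ratio, 4.08 to 4.70, has the narrowest spread.

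Promoters are shown for the Cox8 pair and for Cox6a1, because the first pair combines a ratio near the highest with a contrast in sequence. RefSeq promoters (GRCm38.p6, 250 bases before to 50 after the start) were found for 7 of the 10 members, not for Cox4i1, Cox4i2 and Cox6a2. Capitals mark CAGCTG, a site type bound by myogenic factors, in Cox8b (minus strand, chr7:140900397-140900696), and CCGGAAG, an ETS core, read on either strand, in Cox8a (minus strand, chr19:7217567-7217866) and in Cox6a1 (minus strand, chr5:115348909-115349208).
Cox8b: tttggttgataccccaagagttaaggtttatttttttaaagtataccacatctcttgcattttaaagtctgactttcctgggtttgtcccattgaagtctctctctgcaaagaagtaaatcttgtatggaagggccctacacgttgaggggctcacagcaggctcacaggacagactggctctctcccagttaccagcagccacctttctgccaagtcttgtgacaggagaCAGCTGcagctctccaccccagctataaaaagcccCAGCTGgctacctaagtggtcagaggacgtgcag
Cox8a: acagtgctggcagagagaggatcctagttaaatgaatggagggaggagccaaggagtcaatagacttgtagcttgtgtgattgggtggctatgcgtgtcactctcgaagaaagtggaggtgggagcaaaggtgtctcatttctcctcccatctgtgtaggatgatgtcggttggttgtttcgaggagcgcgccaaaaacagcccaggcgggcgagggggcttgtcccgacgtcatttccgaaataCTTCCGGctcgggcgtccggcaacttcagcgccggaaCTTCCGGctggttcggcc
Cox6a1: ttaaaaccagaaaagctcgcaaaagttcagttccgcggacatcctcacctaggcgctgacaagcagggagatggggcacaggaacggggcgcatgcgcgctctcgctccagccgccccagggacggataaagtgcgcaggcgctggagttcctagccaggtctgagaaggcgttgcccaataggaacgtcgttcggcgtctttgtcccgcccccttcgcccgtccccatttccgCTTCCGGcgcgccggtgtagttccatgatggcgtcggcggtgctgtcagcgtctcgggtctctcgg
On both strands, CAGCTG occurred 2 times in Cox8b and in no other member promoter, and 16.3% of 32851 promoters of this length hold it. TATAAA occurred once in Cox8b, not overlapping CAGCTG, and in 13.6% of all promoters. CCGGAAG occurred in Cox8a (2 times) and Cox6a1 (1 time), against 8.86% of all promoters, and the NRF1 motif occurred 2 times in Cox6a1, against 4.6%. The MEF2 motif was in 0 of the 7 windows and in 3.19% of all promoters. CpG pairs numbered 2 in Cox8b and 7 in Cox7a1, both muscle genes. They numbered 19 in Cox8a, 20 in Cox7a2, 32 in Cox6a1, 27 in Cox5b and 35 in Cox5a. The median of all promoters was 7, as in Cox7a1, and 38% of them held at most 4. The muscle gene Cox6a2 is absent from this comparison. These are letters in a window and say nothing of which factor binds.

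Subunit 4 is the largest nuclear subunit and its level came almost wholly from Cox4i1. Cox4i1 lies on the plus strand at chr8:120668222-120674207 and was at 982, 876 and 902 FPKM in KO libraries 1, 2 and 3, against 999.6, 902 and 914 FPKM in WT libraries 1, 2 and 3. The groups overlapped (log2 difference -0.03, SE 0.08, limma adjusted p = 0.988), and WT library 1 was highest. Cox4i2, on the plus strand at chr2:152754173-152765037, was at 2.40, 3.54 and 2.75 FPKM in KO libraries 1, 2 and 3, against 2.17, 3.66 and 3.87 FPKM in WT libraries 1, 2 and 3. These are 17, 27 and 17 fragments in KO libraries and 17, 29 and 25 in WT libraries, and the 95% exact Poisson intervals, from 1.26 to 5.72 FPKM in all, overlap throughout. On the log2(FPKM + 1) scale the groups differed by -0.10 (SE 0.20; limma adjusted p = 0.988). A coefficient of variation of 23.5% over the 6 libraries stood beside 21.3% from counting alone, so differences among libraries were hardly detectable at this depth. Cox4i2 was 0.244%, 0.403% and 0.304% of the pair's FPKM in KO libraries 1, 2 and 3, against 0.216%, 0.404% and 0.422% in WT libraries 1, 2 and 3. The mean log2 ratio of Cox4i2 to Cox4i1 differed by -0.10 (two-sided exact permutation test, p = 0.8). Its sign turned without KO library 1 (0.07), WT library 2 (0.04) or WT library 3 (0.07), and without WT library 1 the difference was -0.42.

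Cox4i2 is also known from pericytes, so the mural cell markers are given beside it. Pdgfrb, Rgs5, Notch3, Higd1b and Cspg4 summed to 180.5, 204.5 and 189.7 FPKM in KO libraries 1, 2 and 3, against 138, 233 and 227 FPKM in WT libraries 1, 2 and 3. Rgs5 held most of that sum (119 to 203 FPKM), all 5 markers were above 0 in every library, and for 0 of 5 did the groups stay apart. All 5 means were lower in KO libraries. WT library 1 had the lowest sum and the lowest Cox4i2, but KO library 2, with the highest Cox4i2 of the KO libraries, had the lowest KO value of every marker but Rgs5. In bulk RNA, fewer cells of a type and less RNA per cell cannot be told apart, and the part of mural cells in the Cox4i2 level was not tested. Endothelial markers summed to 139.8 to 162 FPKM in KO libraries and 118 to 169.8 FPKM in WT libraries. Fibroblast markers summed to 179 to 241 FPKM in KO libraries, and to 171, 339.8 and 328 FPKM in WT libraries 1, 2 and 3, and macrophage and leukocyte markers to 12.9 to 18.9 FPKM in KO libraries and 14.2 to 41.3 FPKM in WT libraries. Adipocyte markers summed to 13.1 to 21.3 FPKM in KO libraries and 19.4 to 49.2 FPKM in WT libraries. Means were lower in KO libraries for 4 of 5 endothelial, 5 of 5 fibroblast, 5 of 5 macrophage and leukocyte and 3 of 3 adipocyte markers. The groups were apart for 1 of these genes, Cfd, where 5.64% of all 11383 tested genes were apart with KO libraries lower. In the fibroblast, leukocyte and adipocyte sums WT library 1 lay within the range of the KO libraries or below it, while WT libraries 2 and 3 lay above.

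**Figure D3:**
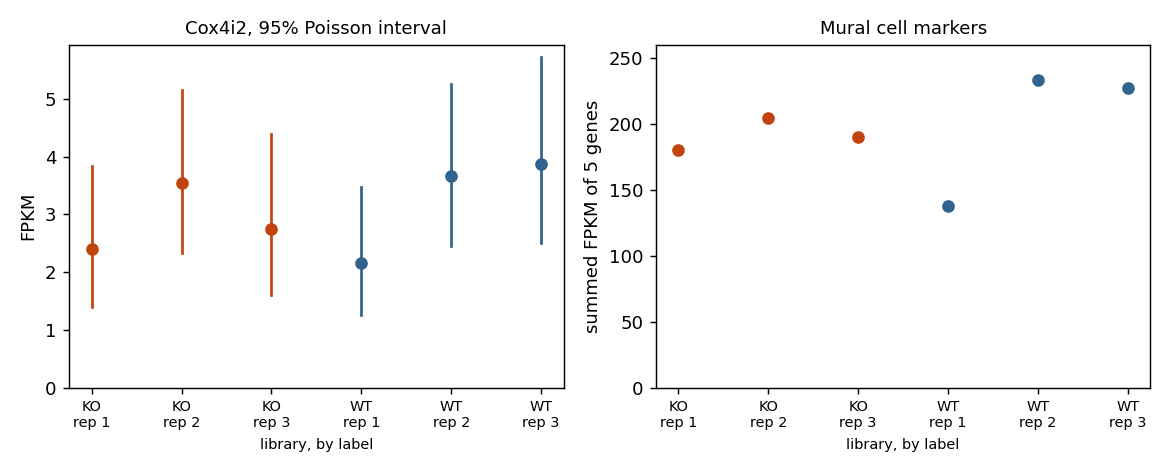
Left, Cox4i2 in FPKM in each library with its 95% exact Poisson interval. Right, summed FPKM of the 5 mural cell markers in the same libraries, KO-labelled libraries left of WT-labelled ones in both. WT library 1 is lowest in both panels, at 2.17 FPKM for Cox4i2 and 138 FPKM for the markers, a sum that is mostly Rgs5 (119 to 203 FPKM).

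Subunits 5a and 5b face the matrix, where 5b holds a zinc ion, and their genes were at unequal levels. Cox5b, on the plus strand at chr1:36691449-36693681, was at 1054, 1039 and 986 FPKM in KO libraries 1, 2 and 3, against 1094, 994 and 1020.5 FPKM in WT libraries 1, 2 and 3. It varied least of the 10 members over the 6 libraries (coefficient of variation 3.88%), with a log2 difference of -0.01 (SE 0.07, limma adjusted p = 0.995). Cox5a, on the plus strand at chr9:57521274-57532426, was at 167, 140.0 and 146 FPKM in KO libraries 1, 2 and 3, against 166, 157 and 168 FPKM in WT libraries 1, 2 and 3. KO libraries 2 and 3 lay below all WT libraries and KO library 1 within their range (log2 difference -0.12, SE 0.09, limma adjusted p = 0.988). Cox5b exceeded Cox5a by 6.30, 7.42 and 6.74 times in KO libraries 1, 2 and 3, against 6.60, 6.35 and 6.07 times in WT libraries 1, 2 and 3.

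By FPKM, a level per length, the order was Cox6a2, Cox8b, Cox7a1, Cox5b, Cox4i1, Cox7a2, Cox5a, Cox6a1, Cox8a and Cox4i2. Neighbours within the first 5 had overlapping ranges over the 6 libraries, yet each neighbour pair among them kept its order in all 6 libraries. Cox6a1 and Cox8a overlapped and kept their order in 4 of 6 libraries. Gaps without overlap separated Cox4i1 from Cox7a2, Cox7a2 from Cox5a, Cox5a from Cox6a1, and Cox8a from Cox4i2. WT library 1 held the highest value of 6 members and WT library 3 that of 3. The length behind the FPKM, recovered from the values, was 680 bases for Cox6a2 and 362 for Cox8b, against 545 for Cox8a and 596 for Cox6a1, and 364 for Cox7a1 and 754 for Cox7a2. The order depends on these lengths. With the exon union of the annotation instead, chosen after seeing the data, Cox4i1 (mean 361 FPKM over 6 libraries) stood above Cox5b (331 FPKM). The muscle genes Cox6a2 (1579 FPKM), Cox8b (1319 FPKM) and Cox7a1 (750 FPKM) then lay above both of these without overlap. Cox8b and Cox7a1 no longer overlapped, and Cox6a1 (53.9 FPKM), Cox5a (51.7 FPKM) and Cox8a (51.2 FPKM) overlapped. On that length the ratios were 21.9 to 37.4 for Cox6a2 to Cox6a1, 3.48 to 4.001 for Cox7a1 to Cox7a2 and 20.7 to 32.7 for Cox8b to Cox8a.

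None of the 10 members passed limma's test between the labels. The background was equally empty: 0 of 11383 genes had an adjusted p under 0.05 (0%), 523 had an unadjusted p under 0.05 (4.59%), and limma voom on recovered fragments also called 0, with 468 at an unadjusted p under 0.05. Of the members, 0 had an unadjusted p under 0.05, and for 0 of 10 did the groups stay apart, where 9.48% of all tested genes did (3.84% with KO libraries higher and 5.64% with KO libraries lower). Mean log2 differences were below 0 for 9 members and above 0 for 1, with a median of -0.07 beside -0.02 over all tested genes. That split was 1 higher and 9 lower also with the replicate block, with voom, without the trend and without the filter, and 0 and 10 without WT library 2. It was 5 and 5 after subtracting each library's median, after quantile normalization and without WT library 1. The direction thus depends on the scaling and on single libraries. Intervals of 95% on the log2(FPKM + 1) scale reached from a KO to WT fold of 0.681 to 1.27 for Cox4i2, 0.738 to 1.19 for Cox6a1, 0.742 to 1.02 for Cox8a and 0.892 to 1.23 for Cox8b. For the other 6 members they lay between 0.804 and 1.14. Differences within these bounds are not shown to be absent.

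**Figure D4:**
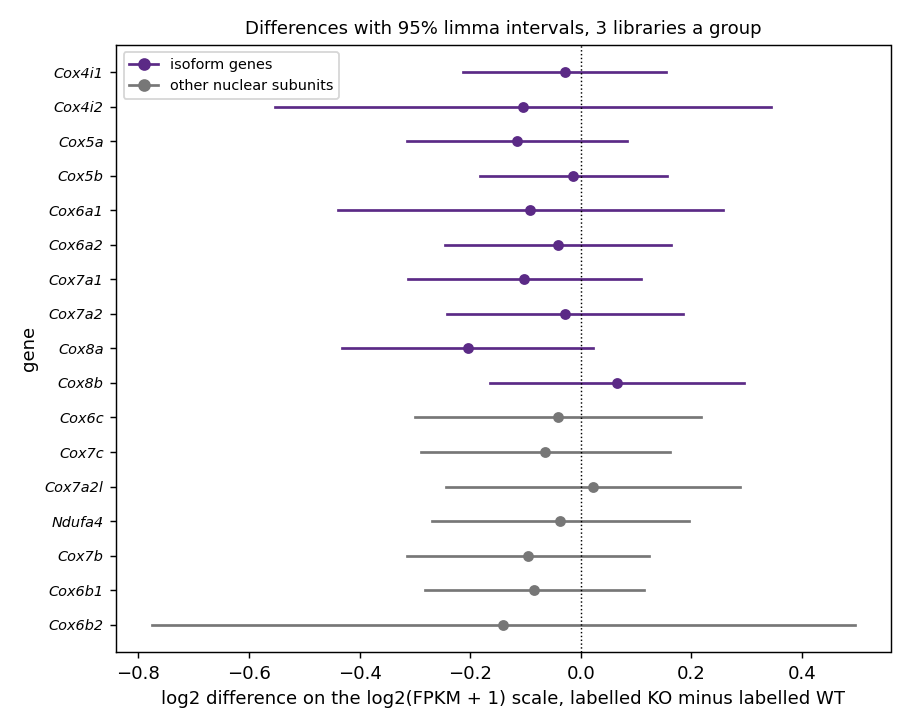
Log2 difference on the log2(FPKM + 1) scale, KO-labelled minus WT-labelled libraries, with its 95% limma interval, for the 10 isoform genes (purple) and 7 other nuclear subunit genes (grey). All 17 intervals include 0, and the widest belong to the low genes Cox6b2 and Cox4i2.

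The other genes of complex IV gave the same absence of calls. Of 9 other nuclear subunit genes, 7 were tested, 0 passed, and for 0 the groups stayed apart. The highest of them, Cox7c, was at 1174 ± 64.9 FPKM in KO libraries and 1231 ± 145 FPKM in WT libraries (SD, n = 3 each). By FPKM this was like the levels of the muscle isoforms, but the likeness depends on the length used. That length was 499 bases for Cox7c, against 1131 bases in its exon union. The 6 lower and 1 higher means of the 7 tested subunit genes became 4 and 3 after median subtraction and 3 and 4 after quantile normalization. Of 29 assembly and expression factors, 27 were tested and 0 passed (smallest limma adjusted p 0.988), and for 4 the groups stayed apart (14.8%, beside 9.48% of all tested genes). Pet100, needed for assembly of the holoenzyme, was at 11.4, 14.2 and 14.9 FPKM in KO libraries, against 17.6, 15.5 and 15.9 FPKM in WT libraries. Cox17, a copper chaperone, was at 2.59, 2.64 and 3.90 FPKM in KO libraries, against 2.19, 2.39 and 1.96 FPKM in WT libraries. Lrpprc, which stabilises mitochondrial mRNAs, was at 58.2, 55.4 and 53.8 FPKM in KO libraries, against 53.1, 49.1 and 46.4 FPKM in WT libraries. Surf1, which acts in heme a insertion, was at 32.6, 35.6 and 33.3 FPKM in KO libraries, against 32.3, 28.8 and 31.0 FPKM in WT libraries. Cox14 was the highest tested factor, at 152 ± 5.07 FPKM in KO libraries and 157 ± 20.8 FPKM in WT libraries.

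The electron donor and the catalytic core complete the set. Cycs, which encodes cytochrome c, was at 399.7, 393 and 396 FPKM in KO libraries, against 482, 407 and 428 FPKM in WT libraries, with groups apart but a limma adjusted p of 0.988 (log2 difference -0.14, SE 0.08). Of the mitochondrial genes, mt-Co1 was at 35067 to 44347 FPKM in KO libraries and 35121 to 40478 FPKM in WT libraries. mt-Co2 was at 34.7 to 106 FPKM in KO libraries and 74.9 to 258 FPKM in WT libraries, and mt-Co3 at 19.3 to 87.4 FPKM in KO libraries and 13.3 to 167 FPKM in WT libraries. Of these 3 tested genes, 0 passed. mt-Co2 and mt-Co3 thus stood far below mt-Co1, and why was not tested.

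Outside complex IV, the 3 tested genes most like the mean log2 FPKM of Cox6a2, Cox7a1 and Cox8b over the 6 libraries were AW549877 (Pearson r 0.99), Tmem29 (0.98) and Spop (0.98). They were picked as the highest of all tested genes over 6 points that share library and depth, so the values describe these libraries alone. Their mean levels were 6.21 FPKM in KO libraries and 6.29 FPKM in WT libraries for AW549877, 3.39 FPKM in KO libraries and 3.66 FPKM in WT libraries for Tmem29, and 203 FPKM in both groups for Spop.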

How the data were processed

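The 6 tables, 1 per library, were deposited by the authors as FPKM per Ensembl gene; the submitters' processing notes name Cufflinks 2.2.1, the mouse build mm10 and TopHat2 2.1.1, but give no roles, and the annotation, filters and strand setting are unknown. Groups came from the sample titles. Symbols matched 40452 of 41025 IDs; positions are from GENCODE M21 on the same assembly.

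limma 3.58.1 in R 4.3.3 was fitted to log2(FPKM + 1) with a mean-variance trend over the 11383 genes averaging 1 FPKM or more (Benjamini-Hochberg, 0.05). It had first been tested on simulated data, with changes larger than those of the members. That test therefore does not show whether changes as small as theirs would be found. Log2 differences understate changes of low genes. Ratios are of FPKM within a library, so scaling between libraries cancels, and were compared by exact permutation over libraries. Fragments and library totals were recovered from the FPKM. Each total was the value that recurred most often when genes were taken to hold 1 fragment over their exon union. For each member the smallest whole length that made all 6 values whole, within 0.002 of a fragment, was used. Longer lengths, such as its multiples, could fit as well and would give more fragments. Named genes are the members, Mettl21e and, from each complex IV list, genes past the test, otherwise up to 4 with separated groups and the highest. The members and lists were chosen with earlier results of these data known. Alternatives were other pseudocounts, filters and scalings, a replicate block, no trend, single libraries left out and, added later, voom and exon-union lengths. Python 3.11.15 was used with pandas 2.3.3, scipy 1.17.1 and Biopython 1.88.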

Additional observations from a re-analysis of the deposited data

How the results depend on the processing

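None of the 139 refits of single members passed the threshold (smallest adjusted p 0.390), and the sign turned in 18 of them, with differences of at most 0.06. After median subtraction the log2 differences, KO minus WT, were 0.0182 for Cox4i1, 0.0337 for Cox5b, 0.0054 for Cox6a2 and 0.0183 for Cox7a2, and after quantile normalization 0.0173, 0.055, 0.0486 and 0.0039 in that order. Leaving out 1 library gave -0.0763 to 0.0177 for Cox4i1, -0.30 to 0.0103 for Cox4i2, -0.0424 to 0.0264 for Cox5b, -0.26 to 0.0529 for Cox6a1, -0.10 to 0.0125 for Cox6a2, -0.11 to 0.0588 for Cox7a2 and -0.0189 to 0.16 for Cox8b. Cox5a, Cox7a1 and Cox8a kept their sign under every setting run. The log2 ratio difference ran from -0.11 to 0.28 for Cox6a2 to Cox6a1, -0.10 to -0.03 for Cox7a1 to Cox7a2, 0.17 to 0.42 for Cox8b to Cox8a and -0.42 to 0.0715 for Cox4i2 to Cox4i1. The Mettl21e difference ran from -0.19 to 0.88 FPKM. Over all genes, leaving out 1 library called 0 to 3 genes, none of them a member.

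With the replicate block, 0 genes were called (472 at an unadjusted p under 0.05), and the exact sign-flip p of the ratio differences, unchanged at 0.05, -0.07, 0.27 and -0.10 in the order above, was 1.0, 0.25, 0.5 and 0.75, where 0.25 is the smallest possible. Deviations of same-numbered libraries correlated at 0.02, -0.04 and 0.02 over tested genes, beside -0.05 to 0.03 for libraries of other numbers. A correlation over all tested genes can miss a pairing that moves few of them, so whether the numbers pair the libraries is not settled. Exon-union lengths moved the mean ratio over 6 libraries to 3.82 for Cox7a1 to Cox7a2, from 4.48, and to 0.00794 for Cox4i2 to Cox4i1, from 0.00333. They also moved it to 30.0 for Cox6a2 to Cox6a1, from 25.4, and to 26.1 for Cox8b to Cox8a, from 22.9. Depth limited Cox4i2 most among the members, at 17 to 29 fragments. The coefficient of variation from counting was 5.65% beside 10.9% over the 6 libraries for Cox8a, and 5.19% beside 15.3% for Cox6a1. Where a setting turned a sign, the cause was not tested.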
